A study of Mus musculus with 10 samples.

Results

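The transporters examined here are the 106 genes, of 22180 genes with a measured value, whose symbol places them in 11 solute carrier families for sugars, amino acids, peptides and monocarboxylates. A gene was taken as a member if its symbol began with Slc1a, Slc2a, Slc3a, Slc5a, Slc6a, Slc7a, Slc15a, Slc16a, Slc36a, Slc38a or Slc43a followed by a digit. Of the 106 symbols, 4 name no carrier (the pseudogene Slc2a4rg-ps and the opposite-strand genes Slc36a1os, Slc6a19os and Slc7a6os), which leaves 102 carriers. The cells were sorted mouse intestinal cells measured on 10 arrays. In 6 arrays the cells had high Lgr5 and GFP (Lgr5-high) and came from C57BL/6J mice with the Lgr5-EGFP-IRES-creERT2 allele. In 4 arrays they were crypt cells described as expressing Flattop, the product of Cfap126, from FltpT2AiCre mice crossed with Gt(ROSA)26mTmG on a mixed background of C57BL/6J, CD1 and 129/SvJ. All mice were 3 to 6 months old, and no treatment other than cell preparation and sorting is named for either group.

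The design limits both groups as models. Genotype and strain coincide with group, so they cannot be told apart from it. A Cre at the Flattop locus switches the ROSA26 membrane reporter permanently, so as background a reporter of this kind also marks descendants of cells that once expressed Flattop. Neither the sort gates nor the animals behind each array are named in the labels used here. The p-values therefore reflect only how far the arrays of a group differ, part of which may be technical. In bulk samples fewer cells of a type and less RNA per cell cannot be told apart.

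Absorptive epithelium takes up nutrients through carriers in the apical brush border and releases them to the blood through other carriers in the basolateral membrane. Glucose and most amino acids enter with sodium, small peptides enter with protons after brush border peptidases have cut dietary protein, and fructose and glucose leave by facilitated diffusion. Some amino acid exchangers are heteromers, in which a light chain of the Slc7a family does the transport and a heavy chain, Slc3a1 or Slc3a2, carries it to the membrane. Dividing cells rely on another set, among them the large neutral amino acid exchanger Slc7a5 with Slc3a2, and the glutamine carriers Slc1a5 and Slc38a1. The question for these genes was whether Flattop crypt cells and Lgr5-high stem cells differ in this uptake machinery.

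Of the 106 members, 5 rose in the Flattop arrays (4.72%) and 0 fell, where 0.915% of all genes tested were called, 0.902% as higher and 0.0135% as lower (limma over all genes, Benjamini-Hochberg adjusted p under 0.05). They were the peptide carrier Slc15a1, the cystine and dibasic amino acid light chain Slc7a9, the proline carrier Slc6a20a, the inositol and glucose carrier Slc5a11 and the monocarboxylate carrier Slc16a6. At an unadjusted limma p under 0.05, 17 members were higher (16.0%) and 1 was lower (0.943%), against 5.98% and 3.8% of all genes. The groups did not overlap in 6 members, all higher in Flattop (5.66%), and in 0 members that were lower, against 2.01% and 0.974% of all genes. The set as a whole was not shifted upward. Its median difference was -0.11 on the log2 scale, beside -0.06 over all genes, and 39 of 106 members (36.8%) had a positive difference, beside 38.5% of all genes.

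The promoters of called members for which RefSeq (GRCm38.p6) gave a window are shown because these genes were all called higher. Whether they vary together was not tested. Each window is the 250 bases before the start, 5′ to 3′ on the gene's strand. Capitals mark matches to 4 motifs named for epithelial transcription factors, searched on both strands. The letters searched were CAAAGT for the HNF4 motif and GTTAAT for the HNF1 motif. For the CDX motif they were TTTATG, and for the GATA motif AGATAA. No matches shared a base.
Slc15a1, chr14:121505255-121505504, minus strand: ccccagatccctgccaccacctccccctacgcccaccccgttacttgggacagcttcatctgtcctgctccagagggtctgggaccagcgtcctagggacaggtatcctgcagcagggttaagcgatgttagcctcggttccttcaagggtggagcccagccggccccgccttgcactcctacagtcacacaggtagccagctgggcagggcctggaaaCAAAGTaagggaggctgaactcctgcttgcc
Slc7a9, chr7:35448842-35449091, plus strand: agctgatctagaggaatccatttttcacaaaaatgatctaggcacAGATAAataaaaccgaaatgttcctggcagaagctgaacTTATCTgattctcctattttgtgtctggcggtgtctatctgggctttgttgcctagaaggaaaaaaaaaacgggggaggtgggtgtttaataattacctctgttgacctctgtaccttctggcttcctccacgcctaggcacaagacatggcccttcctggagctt
Slc6a20a, chr9:123678833-123679082, minus strand: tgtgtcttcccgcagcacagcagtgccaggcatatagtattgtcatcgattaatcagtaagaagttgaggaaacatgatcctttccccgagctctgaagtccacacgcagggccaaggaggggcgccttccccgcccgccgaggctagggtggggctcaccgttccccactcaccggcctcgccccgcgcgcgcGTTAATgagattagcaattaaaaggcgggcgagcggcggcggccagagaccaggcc
Slc5a11, chr7:123214616-123214865, plus strand: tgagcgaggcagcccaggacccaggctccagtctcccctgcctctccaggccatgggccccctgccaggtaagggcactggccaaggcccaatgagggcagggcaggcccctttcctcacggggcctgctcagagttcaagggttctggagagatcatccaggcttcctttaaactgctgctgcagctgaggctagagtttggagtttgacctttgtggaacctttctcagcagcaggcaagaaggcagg

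The Slc15a1 window held the HNF4 motif letters, beginning 31 bases before the start, and 12.6% of 32841 RefSeq promoter windows of this length held them too. The Slc6a20a window held the HNF1 letters at 56 bases before the start, as did 6.43% of all windows. The Slc7a9 window shown held the GATA letters at 205 and, on the other strand, 166 bases before the start, as did 9.99% of all windows, and the second RefSeq window of this gene held none of the 4. The Slc5a11 window held none of them, and the CDX letters, present in 10.8% of all windows, were in none of the windows of called members. No motif was shared by the called members. Over the 98 windows of the 78 members with a RefSeq entry, the shares were 7.14%, 7.14%, 3.06% and 5.1% for HNF4, HNF1, CDX and GATA.

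**Figure D1:**
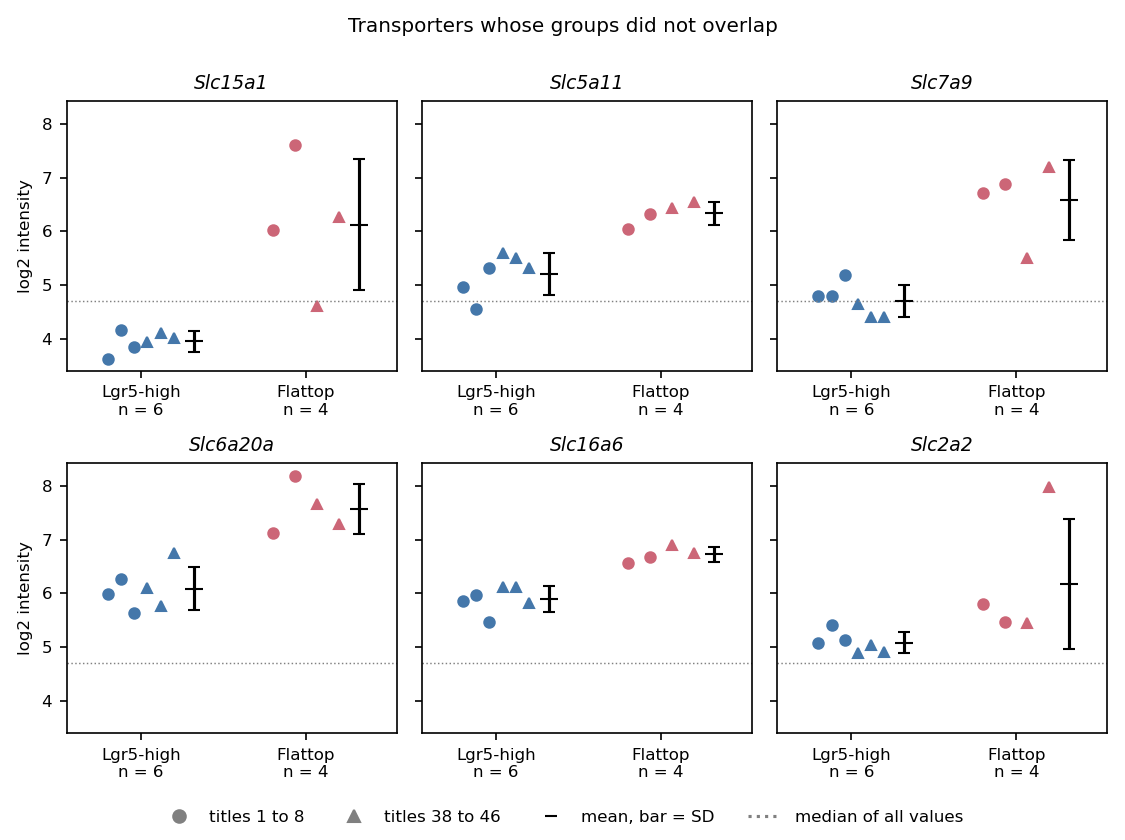
Log2 intensity of the 6 transporters whose groups did not overlap, in 6 Lgr5-high (blue) and 4 Flattop (red) arrays, with circles for sample titles numbered 1 to 8, triangles for 38 to 46, and the mean and SD in black. Every Flattop array lies above every Lgr5-high array, and the dotted line is the median of all values, 4.70.

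Of 5 measured peptide and histidine carriers 1 rose, 0 fell and 3 had a negative difference, with a median of -0.25. The 1 that rose had the largest difference of all 106 members. Slc15a1, the proton-coupled carrier that brings di- and tripeptides across the brush border, read 6.02, 7.60, 4.61 and 6.27 (log2 intensity) in Flattop replicates 1 to 4. In the 6 Lgr5-high arrays its lowest, median and highest levels were 3.63, 3.97 and 4.17. All Flattop arrays were above all Lgr5-high arrays, with replicate 3 nearest to them. The difference was 2.18 (SE 0.44, a 4.53-fold higher intensity, adjusted p = 0.0492). The Lgr5-high levels lay under the median of all values (4.70) and near the lower quartiles of the arrays (3.59 to 3.84), so without detection calls the size of this difference is uncertain. The other 4 members of the family did not pass. The kidney and brain peptide carrier Slc15a2 had a difference of -0.47 (SE 0.29, adjusted p = 0.633), and the lysosomal carriers Slc15a3 and Slc15a4 had differences of -0.31 and 0.04.

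Apical amino acid carriers held 2 of the 5 calls. Of 11 measured members of this group 2 rose, 0 fell, and 8 had a positive difference, with a median of 0.62. Slc7a9 read 6.72, 6.89, 5.50 and 7.20 in the Flattop arrays, against a lowest, median and highest level of 4.40, 4.71 and 5.18 in Lgr5-high. As for Slc15a1, Flattop replicate 3 was the lowest of its group and still above every Lgr5-high array. The Slc7a9 difference was 1.88 (SE 0.30, a 3.67-fold higher intensity, adjusted p = 0.0150). Slc6a20a, a sodium-dependent carrier of proline and other imino acids, read 7.13, 8.19, 7.66 and 7.30 in Flattop and 5.63, 6.04 and 6.75 (lowest, median, highest) in Lgr5-high. Its difference was 1.49 (SE 0.26, a 2.80-fold higher intensity, adjusted p = 0.0224). Its neighbour and close relative Slc6a20b had a difference of -0.37 (SE 0.20, adjusted p = 0.606). Probes may not separate such relatives fully, so the split between these copies is uncertain.

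The other apical amino acid carriers did not pass over all genes. Slc6a19, the main neutral amino acid carrier of the small intestine, read 4.71, 5.72, 5.64 and 5.89 in Flattop and 4.53, 4.90 and 5.02 in Lgr5-high. Flattop replicates 2 to 4 lay above the Lgr5-high arrays and replicate 1 lay among them, and the difference was 0.64 (SE 0.22, 95% interval 0.17 to 1.12, adjusted p = 0.324). It passed in 1 of 10 fits that each left out 1 array, that without Flattop replicate 1 (adjusted p = 0.0174), and lay between 0.373 and 0.579 in the others. The creatine carrier Slc6a8 had means of 7.83 ± 0.63 (SD, n = 4) and 6.23 ± 0.68 (SD, n = 6), with 1 Lgr5-high array (replicate 1, 7.25) above the lowest Flattop array (7.195). Its difference was 1.60 (SE 0.38, adjusted p = 0.105), and of the 10 such fits it passed in 1, that without the overlapping Lgr5-high array (adjusted p = 0.0495, otherwise 0.0877 to 0.249). The proton-coupled small amino acid carrier Slc36a1 differed by 0.62 (SE 0.31, 95% interval -0.06 to 1.30, adjusted p = 0.566). The glutamate and aspartate carrier Slc1a1 differed by 0.37 (SE 0.36, 95% interval -0.43 to 1.17, adjusted p = 0.754), and by 0.0263 without Flattop replicate 2.

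Apical sugar carriers had mostly positive differences, and 1 of 7 measured rose. Slc5a11, which takes up myo-inositol and glucose with sodium, read 6.04, 6.33, 6.43 and 6.55 in Flattop, and 4.54, 5.32 and 5.59 in Lgr5-high. The Flattop arrays lay close together and above the whole Lgr5-high range. The difference was 1.13 (SE 0.21, a 2.19-fold higher intensity, adjusted p = 0.0320). Slc5a1, the sodium-coupled glucose and galactose carrier of the brush border, read 8.78, 9.20, 7.77 and 9.82 in Flattop and 6.57, 7.52 and 8.07 in Lgr5-high. Flattop replicate 3 lay within the Lgr5-high range and the other Flattop arrays above it. The Slc5a1 difference was 1.45 (SE 0.40, 95% interval 0.57 to 2.33, adjusted p = 0.186). Slc2a5, the fructose carrier, read 5.32, 6.06, 4.82 and 6.26 in Flattop and 4.51, 4.71 and 4.93 in Lgr5-high, again with Flattop replicate 3 inside the other group's range (difference 0.89, SE 0.25, adjusted p = 0.214). Of 10 fits that each left out 1 array, Slc5a1 and Slc2a5 passed in 1, that without the overlapping Flattop replicate 3 (adjusted p = 0.0464 and 0.0306). With Lgr5-high replicate 2 left out as well neither passed (0.0836 and 0.0648). Over the 7 genes, 6 differences were positive and the median was 0.87.

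Sugar exit and general sugar uptake did not pass in any of 10 measured members, of which 1 was higher at an unadjusted limma p under 0.05. That was Slc2a2, the facilitative carrier through which glucose and fructose leave the enterocyte. It read 5.80, 5.47, 5.45 and 7.97 in the Flattop arrays and 4.89, 5.06 and 5.42 in Lgr5-high. The groups did not overlap, and Flattop replicate 4 stood far above the other arrays. The Slc2a2 difference was 1.09 (SE 0.43, 95% interval 0.14 to 2.05, adjusted p = 0.435), and without Flattop replicate 4 it was 0.49. The widespread glucose carrier Slc2a1 differed by 0.63 (SE 0.34, adjusted p = 0.598), and a second, dimmer Slc2a1 probe set by -0.17. The high-affinity glucose carrier Slc2a3, prominent in neurons and leukocytes, had nearly equal means of 4.39 ± 0.27 (SD, n = 4) and 4.40 ± 0.20 (SD, n = 6), with a difference of -0.01 (95% interval -0.36 to 0.34).

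**Figure D2:**
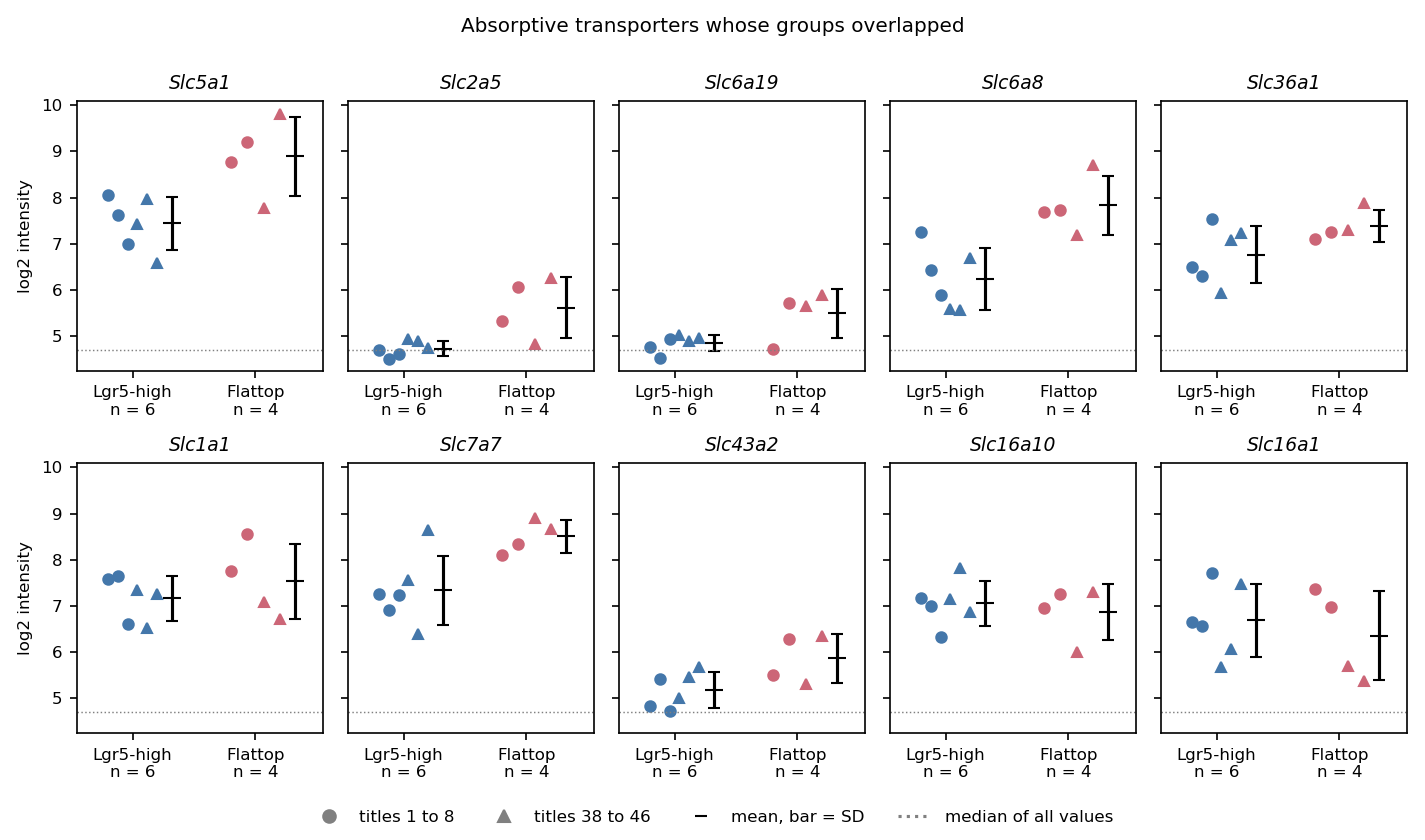
Log2 intensity of 10 absorptive transporters whose groups overlapped, drawn as for the separated members, with blue for 6 Lgr5-high and red for 4 Flattop arrays and the mean and SD in black. Slc5a1 and Slc2a5 are higher in 3 of 4 Flattop arrays, and Flattop replicate 3 (the left triangle) lies inside the Lgr5-high range for both.

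Basolateral amino acid carriers were uneven, and none of 8 measured passed limma over all genes, while 3 were higher and 0 were lower by the unadjusted p. Slc7a7, the light chain that releases dibasic amino acids, read 8.11, 8.33, 8.90 and 8.67 in Flattop and 6.39, 7.24 and 8.64 in Lgr5-high. Only Lgr5-high replicate 6 reached into the Flattop range. The difference was 1.17 (SE 0.37, adjusted p = 0.268), and of the 10 fits that each left out 1 array it passed in 1, that without this overlapping array (adjusted p = 0.0420, otherwise 0.305 to 0.454). Slc43a2, a uniporter of branched-chain and aromatic amino acids, differed by 0.68 (SE 0.27, adjusted p = 0.426). The aromatic amino acid carrier Slc16a10 differed by -0.18 (SE 0.31, 95% interval -0.87 to 0.51), and the light chain Slc7a8 by 0.93 (SE 0.58, 95% interval -0.35 to 2.21), or 0.48 without Lgr5-high replicate 2.

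The 2 heavy chains did not pass over all genes. Slc3a1, the heavy chain of Slc7a9, read 7.01, 7.38, 5.78 and 6.09 in Flattop, and its lowest, median and highest Lgr5-high levels were 5.07, 5.39 and 7.69. Lgr5-high replicate 2 had a higher Slc3a1 level than any other array of either group, while its Slc7a9 level, 4.795, was within the range of its group. The Slc3a1 difference was 0.75 (SE 0.51, 95% interval -0.38 to 1.89, adjusted p = 0.666), and without Lgr5-high replicate 2 it was 1.13. Slc3a2, the heavy chain shared by Slc7a5, Slc7a7 and Slc7a8, read 7.06, 7.47, 8.03 and 7.49 in Flattop. In Lgr5-high replicates 1 to 6 it read 7.51, 4.65, 6.42, 6.58, 7.45 and 5.14. Of the Lgr5-high arrays, replicates 1 and 5 lay inside the Flattop range and the other 4 below it, and the difference of 1.22 (SE 0.55, adjusted p = 0.505) did not pass.

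The spread of Slc3a2 was matched in other exchanger subunits of the Lgr5-high group. Slc7a5, the light chain that brings leucine and other large neutral amino acids into growing cells, read 6.85, 9.66, 8.83, 4.75, 8.35 and 5.40 in Lgr5-high replicates 1 to 6 (SD 1.97). In Flattop it read 7.32, 7.68, 7.19 and 5.95. The Flattop arrays lay inside the Lgr5-high range, and the difference of -0.27 had a 95% interval from -2.28 to 1.73. Lgr5-high replicate 2 had the highest Slc7a5 and the lowest Slc3a2 and Slc7a8 (5.83) of its group, and replicate 6 had the highest Slc7a8 (9.41) beside a low Slc7a5 and Slc3a2. Only 4 members had an SD over 1 in Lgr5-high, namely Slc7a5, Slc7a8, Slc3a2 and the monocarboxylate carrier Slc16a5, and 2 in Flattop, Slc15a1 and Slc2a2. The median SD of the members was 0.28 in Lgr5-high and 0.30 in Flattop, close to that of all genes (0.29 and 0.28).

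**Figure D3:**
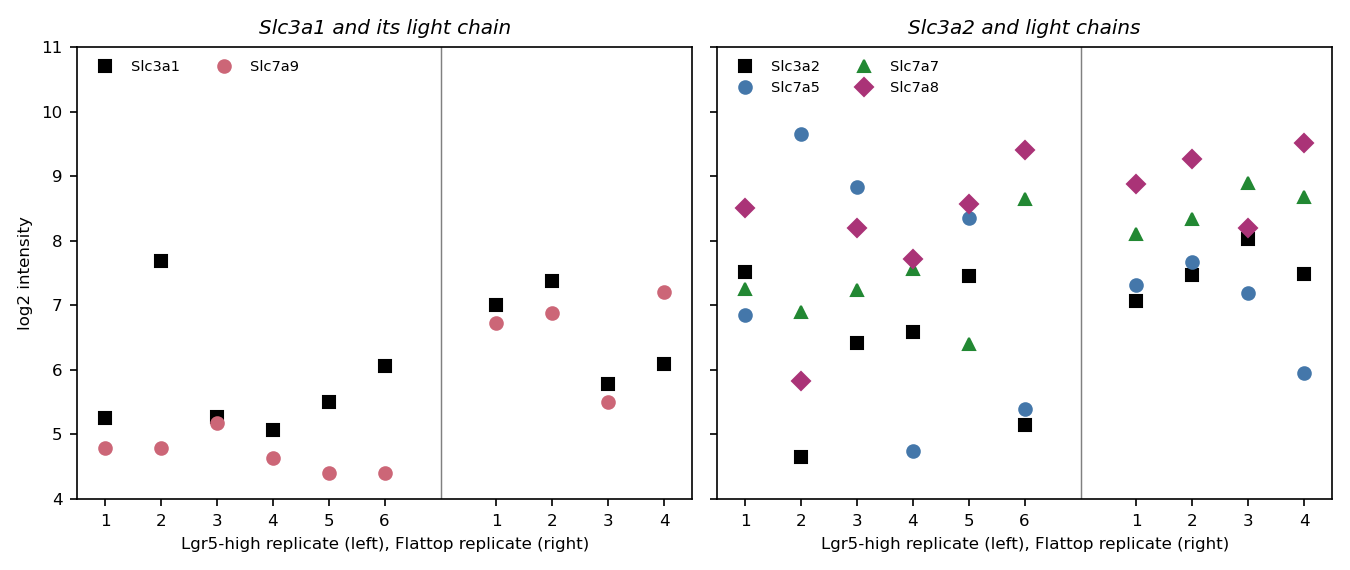
Log2 intensity per array of the heavy chains (black squares) and light chains of the heteromeric exchangers, with Lgr5-high replicates 1 to 6 to the left of the line and Flattop replicates 1 to 4 to the right. Levels of different probe sets cannot be ranked against each other, so only the pattern of each symbol across arrays is read: Slc7a5 and Slc3a2 scatter widely in Lgr5-high, and Slc7a9 is higher in every Flattop array.

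Carriers that feed growing cells did not pass in any of 9 measured members, and the median difference was -0.11, and an unadjusted limma p under 0.05 was reached by 1 higher member (Slc3a2) and 0 lower ones. The glutamine carriers had differences near 0. Slc1a5 averaged 8.71 ± 0.49 (SD, n = 4) over the Flattop arrays and 8.82 ± 0.50 (SD, n = 6) over the Lgr5-high arrays (difference -0.11, 95% interval -0.75 to 0.54). Its second probe set differed by 0.43 (SE 0.96) and ranged from 5.87 to 11.48 within Lgr5-high. Slc38a1 differed by -0.25 (95% interval -0.94 to 0.44) and Slc38a2, which rises when amino acids are scarce in many cells, by -0.11 (95% interval -0.77 to 0.55). The cystine and glutamate exchanger Slc7a11 was below the median of all values in every array and differed by -0.12 (95% interval -0.48 to 0.24). The serine and alanine exchanger Slc1a4 differed by 0.26 (SE 0.18, adjusted p = 0.669), and, outside this group, the glial glutamate carrier Slc1a3 by -0.50 (SE 0.36, adjusted p = 0.683).

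Among lysosomal and other system A and N carriers, 0 of 13 passed limma over all genes and 2 were higher at an unadjusted p under 0.05. Slc38a9, the lysosomal arginine sensor that signals to mTORC1, read 6.22, 6.70, 5.64 and 5.43 in Flattop and 4.66, 4.89 and 5.601 in Lgr5-high. The 2 groups overlapped only through Flattop replicate 4 and Lgr5-high replicate 1. Its difference was 1.02 (SE 0.26, adjusted p = 0.145). Slc38a10 differed by 0.79 (SE 0.26, adjusted p = 0.306), and its second, dimmer probe set by 0.18. The renal-type proton-coupled carrier Slc36a2 differed by -0.28 (SE 0.15, adjusted p = 0.585), and, from the smallest family after Slc3a, the nucleobase carrier Slc43a3 by -0.12 (SE 0.16).

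Of 14 monocarboxylate carriers, Slc16a6 was the 1 that rose. It read 6.57, 6.68, 6.90 and 6.76 in Flattop and 5.46, 5.92 and 6.12 in Lgr5-high, so the groups were separate and both narrow. The difference was 0.83 (SE 0.15, a 1.78-fold higher intensity, adjusted p = 0.0281). Slc16a1, the main lactate and butyrate carrier of the gut, read 7.37, 6.96, 5.69 and 5.37 in Flattop and 5.67, 6.59 and 7.72 in Lgr5-high. Its groups overlapped widely, with a difference of -0.34 (95% interval -1.42 to 0.74). Slc16a13 was at -0.80 (SE 0.40, adjusted p = 0.563), the most negative difference of all 106 members, and its Lgr5-high level was highest in replicate 4 (8.73), without which it was -0.49.

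The remaining groups of the set held 0 calls. In 1 of them, 12 members placed in no other group, 10 had a negative difference and 0 had an unadjusted limma p under 0.05. Of 15 neurotransmitter-type carriers 0 passed limma over all genes, 13 had a negative difference and 1 was higher at an unadjusted p under 0.05. That was the serotonin carrier Slc6a4 (0.72, SE 0.30, adjusted p = 0.470). Among the 3 carriers of vitamins, choline and iodide, the multivitamin carrier Slc5a6 was the single member of the whole set that was lower at an unadjusted p under 0.05 (-0.48, SE 0.18, adjusted p = 0.385). Slc5a4a, counted above among the apical sugar carriers, is a relative of Slc5a1 with a near copy in Slc5a4b. It differed by 0.87 (SE 0.32, adjusted p = 0.382), with a level of 6.09 in Flattop replicate 4 beside 4.34 to 4.602 in the other Flattop arrays. These genes, with Slc16a5, Slc6a20b, Slc15a3, Slc15a4, Slc7a6 and Slc6a3, were named after their values were seen.

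**Figure D4:**
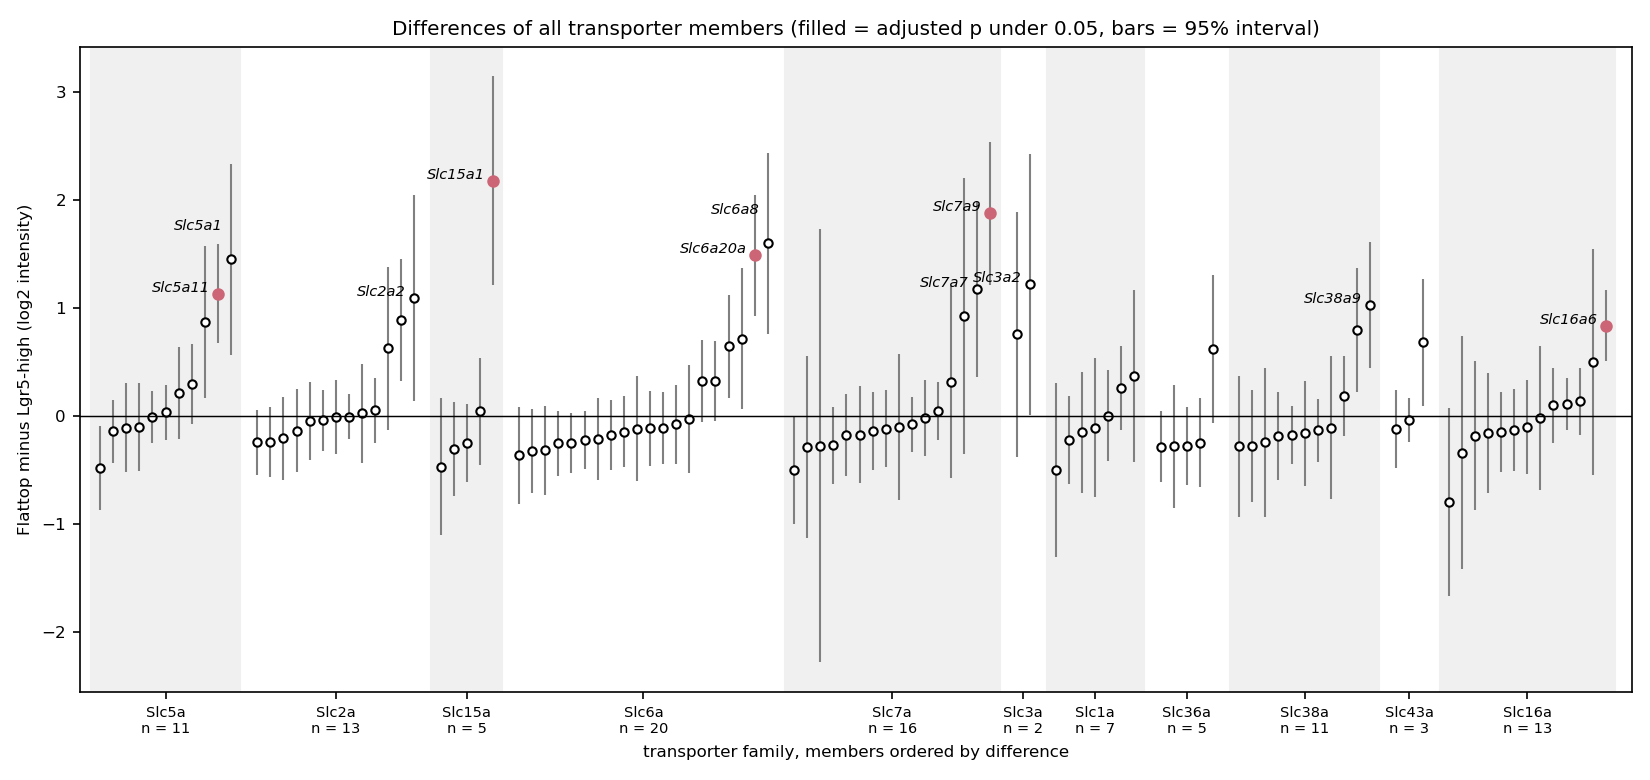
Flattop minus Lgr5-high difference in log2 intensity for each of the 106 members, ordered within its family, with 95% intervals as bars and filled points for an adjusted p under 0.05 over all genes. Most points lie near 0, and the 5 filled points are each the highest or next to highest of the Slc5a, Slc15a, Slc6a, Slc7a and Slc16a families.

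By family, 1 member rose in each of Slc5a (of 11), Slc6a (of 20), Slc7a (of 16), Slc15a (of 5) and Slc16a (of 13), and 0 in the other 6 families. Family medians lay between -0.28 (Slc36a) and 0.99 (Slc3a, which has only its 2 heavy chains). Apart from Slc3a, the only family median above 0 was that of Slc5a at 0.03. Mean family levels per array ranged from 5.145 to 5.51 in Flattop and 4.89 to 5.14 in Lgr5-high for Slc5a, so these ranges narrowly did not overlap. Nor did those of Slc3a, where the lowest Flattop array was at 6.79 and the highest Lgr5-high array at 6.48. For Slc7a they were 5.578 to 5.75 and 5.50 to 5.583, overlapping narrowly. They overlapped more widely for Slc16a (5.53 to 5.72 and 5.61 to 5.795) and for Slc38a (5.48 to 5.61 and 5.40 to 5.635).

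Other genes of the absorption pathway, from lists of 48 symbols of which 42 were measured, rose in 8 cases and fell in 0. Over all genes 0.902% were called higher and 0.0135% lower. Brush border peptidases made up 5 of these, out of 9 measured. Enpep (glutamyl aminopeptidase) rose by 3.82 (SE 0.50), Naaladl1 by 2.35, Anpep (aminopeptidase N) by 2.29, the meprin subunit Mep1b by 2.28 and the proline-specific aminopeptidase Xpnpep2 by 1.88. Of 4 disaccharidases, sucrase-isomaltase (Sis) rose by 4.72 (SE 0.43, adjusted p = 0.000378). The peptidase Dpep1 rose by 2.62 (SE 0.29, adjusted p = 0.00137), and the sodium and proton exchanger Slc9a3, which sustains the proton gradient used by Slc15a1, by 1.28 (SE 0.21, adjusted p = 0.0198). Slc9a3 was the 1 call among 6 measured sodium and proton gradient genes, of which 4 had a negative difference (median -0.14). In that list 2 genes were higher and 1 was lower, Kcnq1 (-0.94), at an unadjusted limma p under 0.05. Carrier chaperones (4 measured), fructose handling genes (4) and amino acid response genes (9) each had 0 calls in limma, and an unadjusted p under 0.05 was reached by 0, 2 and 1 higher and by 0, 0 and 1 lower genes. The chaperone Bsg, which carries Slc16a1 to the membrane, differed by 0.05 (adjusted p = 0.943), and Atf4, the factor of the amino acid response, by 0.04 (adjusted p = 0.976).

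Markers of other cells moved in the same direction. Of 11 enterocyte markers 8 rose and 11 were positive, and their summed intensity (log2 of the sum) was 13.84 to 14.86 in Flattop and 11.78 to 12.64 in Lgr5-high arrays. Anpep and Sis are among these 8 and were also counted among the called absorption genes above. Of 11 lymphocyte markers 10 rose, with Cd2 at -0.09, and their sum was 12.98 to 14.96 against 7.996 to 8.465. Enterocyte means in Flattop replicates 1 to 4 were 10.37, 10.44, 9.87 and 10.98, and lymphocyte means were 8.31, 8.81, 10.54 and 9.93. Replicate 3, the lowest of the Flattop arrays for Slc15a1, Slc7a9, Slc5a1, Slc2a5 and Slc3a1, had the lowest enterocyte mean, the highest lymphocyte mean and the lowest stem cell mean (7.87). The same array was the highest Flattop array for the called Slc16a6 (6.90) and for Slc7a7 and Slc3a2, and the second highest for the called Slc6a20a (7.66) and Slc5a11 (6.43). Goblet (5 of 7), Paneth (3 of 6) and enteroendocrine (4 of 7) markers rose as well, while tuft (5) and myeloid (4) markers had 0 calls in limma, with 0 and 1 higher at an unadjusted p under 0.05. Of 4 markers of gut region, 1 rose, the ileal bile acid binding protein gene Fabp6 (7.10). These 4 genes cover both the ileum and the proximal gut, so they need not share a direction. The others did not pass, with Slc10a2 at 0.20, Gata4 at -0.09 and Onecut2 at -0.41. Onecut2 was lower at an unadjusted limma p under 0.05. Of the 8 stem cell markers all had negative differences and 0 passed limma, with 6 lower at an unadjusted p under 0.05. Lgr5 itself averaged 8.37 ± 1.42 (SD, n = 4) over the Flattop and 9.47 ± 0.33 (SD, n = 6) over the Lgr5-high arrays, and Cfap126 5.42 ± 0.74 and 4.996 ± 0.35, neither passing (adjusted p = 0.533 and 0.678). The part of these cell markers in the transporter differences was not tested.

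Sample titles carry numbers from 1 to 8 (3 Lgr5-high, 2 Flattop) and from 38 to 46 (3 and 2), whose meaning the labels do not give. The 5 called members were higher in both ranges, which had to follow because their groups did not overlap. Slc7a9 differed by 1.88 and 1.87 in the lower and higher range (adjusted p = 0.0432 and 0.326), Slc6a20a by 1.70 and 1.28, Slc5a11 by 1.24 and 1.02, Slc16a6 by 0.86 and 0.81, and Slc15a1 by 2.93 and 1.43. The last 4 did not pass within either range, where the adjusted p lay between 0.133 and 0.474. No member passed the limma test of a difference between the ranges, which 0.00902% of all genes did. At an unadjusted p under 0.05 there were 4 members (3.77%, against 7.39% of all genes), among them the dibasic amino acid light chain Slc7a6 (1.27 and -0.64, adjusted p = 0.540) and the dopamine carrier Slc6a3 (-0.64 and 0.41, adjusted p = 0.508).

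**Figure D5:**
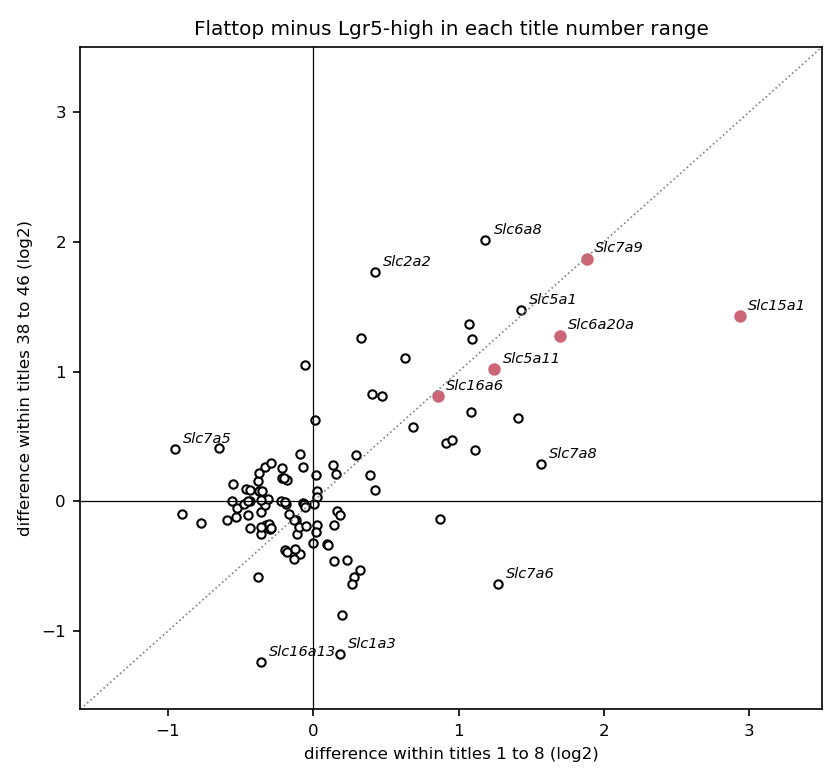
Flattop minus Lgr5-high difference (log2) of the 106 members within titles 1 to 8 (horizontal) and 38 to 46 (vertical), filled where the adjusted p over all arrays is under 0.05, with a dotted line of equal differences. The 5 filled points are positive in both ranges, as they must be where groups do not overlap. Slc7a6 lies below 0 only in the higher range.

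The calls rested on few arrays. Among arrays left out in turn, Slc7a9 missed the threshold only without Flattop replicate 2 (adjusted p = 0.0642). Slc6a20a missed it without Flattop replicates 2 or 3 or Lgr5-high replicates 1, 3, 4 or 5 (0.0512 to 0.0649), and Slc16a6 without Flattop replicates 2, 3 or 4 or Lgr5-high replicates 1, 2 or 6 (0.0522 to 0.0827). Slc5a11 missed it without Flattop replicates 2, 3 or 4 or Lgr5-high replicates 1, 3 or 6 (0.0666 to 0.102). Slc15a1 passed only without Flattop replicate 3 (0.00211) and otherwise lay between 0.0649 and 0.133. The differences in these fits lay between 0.75 (Slc16a6) and 2.68 (Slc15a1). That all 5 stayed positive was fixed beforehand, because the groups of these members did not overlap. Flattop replicate 3 and Lgr5-high replicate 2 were more often the highest of their group than any other array (in 44 and 30 members), while Flattop replicate 2 and Lgr5-high replicate 1 were most often the lowest (in 36 and 26). With Flattop replicate 3 and Lgr5-high replicate 2 left out, 2 members were called, Slc7a9 (adjusted p = 0.0016) and Slc15a1 (0.00589).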

How the data were processed

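RNA of 10 sorted mouse intestinal cell samples was measured on Affymetrix MoGene 2.0 ST arrays. The authors deposited log2 intensities after RMA with oligo 1.38.0, per the submitters' processing notes; arrays have no read depth, and precision is limited by how many there are. Of 41345 probe sets, 23521 carried 1 gene symbol, 1814 several and 16010 none in the platform annotation, and the highest-mean probe set stood for each of 22180 genes. The deposited arrays had medians of 4.56 to 4.77, and no detection calls were used. Flattop minus Lgr5-high was fitted with limma 3.58.1 in R 4.3.3 (lmFit, eBayes) over all genes and 10 arrays, without covariates, with Benjamini-Hochberg adjustment at 0.05. On simulated data the fit recovered 54% of changes of 1 log2 unit, 88.1% of changes of 2 and 97.1% of changes of 4. There were 5 false calls among 166, and a difference of about 1 was often missed. The simulated noise was independent across genes and arrays, without effects shared by a whole array. These rates may therefore not hold for the measured arrays. Named members were those called, the 2 with the smallest p per family, those whose groups did not overlap, and fixed absorption and growth sets. Members and lists were chosen with earlier results of these data known. Other normalisations, filters, blocks, probe set rules and left-out arrays were tried.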

Additional observations from a re-analysis of the deposited data

Results flagged for a closer look

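Among 34 named members, tested in 68 groups of arrays, 1 sample stood far from the others of its group. Slc2a2 read 7.974 (log2 intensity) in Flattop replicate 4, against 5.452 to 5.803 in the other Flattop arrays. The gap to the nearest array was 0.861 of the group's range, above Dixon's 95% critical value of 0.829 for 4 samples. Chance alone passes that value in about 1 of 20 groups, so 1 flag among 68 groups is no more than chance gives on average. Slc5a4a was not among the 34 members tested. It also stood high in Flattop replicate 4 (6.09, against 4.34 to 4.602 in the other Flattop arrays).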

How the results depend on the processing

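Of the 5 members called, 2 remained under a second quantile normalisation (Slc15a1 at adjusted p = 0.0493 and Slc7a9 at 0.0214). Slc15a1 was lost after centring on array medians (0.059) and with the title range as a block (0.0535), and Slc16a6 with a trended and robust prior (0.0944). In titles 1 to 8 alone 1 member was called (Slc7a9), and in titles 38 to 46 alone 0. Leaving out each array in turn gave 0 to 5, with 0 without Flattop replicate 2. Leaving out both Flattop replicate 3 and Lgr5-high replicate 2, an alternative chosen after seeing the data, gave 2 calls. The groups then did not overlap in 13 members in place of 6, with 11 higher and 2 lower in Flattop. Over all 22180 genes, 1708 did not overlap in this setting, where all arrays gave 445 higher and 216 lower. Leaving out each array in turn gave 6 to 12 such members and 807 to 1455 such genes, counts that cannot fall with fewer arrays. The replicate block, which left out Lgr5-high replicates 5 and 6, gave 0 calls among members. Over all genes it gave 57 calls, against 203 in the fit on all arrays without a block. Replicate numbers are part of the sample titles, and the labels do not say whether same-numbered arrays were handled together. Deviations from the group means correlated at 0.297, -0.206, -0.0101 and 0.0292 between same-numbered arrays. These few values cannot settle whether the arrays were paired.

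Some members that were not called changed sign. Within titles 1 to 8 the differences were 0.18 for Slc1a3, 0.27 for Slc16a10, 0.20 for Slc16a1, 0.23 for Slc1a5, 0.10 for Slc7a11 and 0.0175 for Slc38a2. Within titles 38 to 46 they were -0.13 for Slc1a1, 0.40 for Slc7a5 and 0.18 for Slc2a3. With both arrays left out they were 0.10 for Slc16a10, 0.14 for Slc7a5, 0.0590 for Slc38a1 and 0.16 for Slc38a2. Slc2a3 was at 0.0592 after quantile normalisation and 0.0102 after centring, and Slc1a5 at 0.16 as a mean of its probe sets. With each array left out in turn, the ranges were -0.33 to 0.11 for Slc16a10, -0.79 to 0.20 for Slc7a5, -0.35 to 0.0540 for Slc1a5, -0.32 to 0.21 for Slc38a2 and -0.10 to 0.11 for Slc2a3. The cause was not tested. Levels under the median of all values, as for Slc15a1 in Lgr5-high, limit how far sizes can be read.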
